A study of Homo sapiens with 12 samples.

Results

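The splicing factors examined here are the 55 genes, of 13588 listed in either of 2 deposited tables, whose symbols begin with SRSF, HNRNP, SF3A, SF3B, U2AF, PTBP, MBNL, CELF or TRA2. They were chosen by symbol alone and comprise 11 SRSF, 21 HNRNP, 3 SF3A, 6 SF3B, 4 U2AF, 3 PTBP, 3 MBNL, 2 CELF and 2 TRA2 genes. The first table lists 54 of them in 292 transcripts and the second lists 53 in 220 transcripts, with 52 genes in both. CELF2 and PTBP2 appear in the first table only and SRSF8 in the second only.

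RNA was sequenced from MCF-12A, a non-tumour breast epithelial cell line of human origin, after treatment with TGFbeta1 or with vehicle as the control. TGFbeta1, a secreted cytokine, is a standard means of bringing epithelial cells into an epithelial-mesenchymal transition. There were 6 TGFbeta1 libraries and 6 control libraries, of which replicates 1 to 3 of each group form the first set and replicates 4 to 6 the second, normalised and deposited separately. The labels used here give no dose, duration or genotype change, and do not say whether replicates were separate cultures, so each p-value reflects the spread among these libraries alone, and that spread may be technical.

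Pre-mRNA splicing removes introns through the spliceosome, and the families studied here choose and prepare the sites it uses. U2AF recognises the 3' splice site, and the SF3A and SF3B complexes are parts of the U2 small nuclear ribonucleoprotein, which binds the branch point. SR proteins (SRSF genes) and the related TRA2 proteins mostly favour inclusion of the exons they bind, while hnRNPs and PTBP proteins often repress it, and MBNL and CELF proteins act against each other on many developmentally regulated exons.

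Keratin 5, a basal epithelial marker, had 842.3 to 911.8 FPKM in the TGFbeta1 libraries of the first set, against 1303.2 to 1461.5 in its controls, and 451.0 to 519.2 against 452.3 to 515.1 in the second set. FPKM is a fragment count divided by transcript length and by the library's total of mapped fragments. KRT14, KRT17, TP63, EPCAM, CDH1 and ITGA6 were also present in every library. Of the leukocyte, endothelial, erythroid and neural markers with values, the macrophage marker CSF1R had 4.13, 3.37 and 3.61 FPKM in the first set's TGFbeta1 libraries, against 1.23, 1.28 and 1.5 in its controls, and the others stayed at or below 1.35. CSF1R had 0.511 to 0.559 FPKM in TGFbeta1 libraries of the second set, against 0.633 to 0.730 in controls, and its part in the results was not tested. ITGB6, a known TGFbeta target, had 85.4, 83.4 and 80.8 FPKM in the TGFbeta1 libraries of the first set, against 5.40, 4.64 and 6.57 in its controls (log2 change 3.70, limma adjusted p = 6.74e-05). The second set's TGFbeta1 libraries had 2.86, 1.60 and 3.09 FPKM of it, against 2.71, 1.73 and 2.91 in controls. The known targets SMAD7 and FN1 rose in the first set (log2 changes 1.27 and 2.96) and did not pass the test in the second (log2 differences -0.16 and -0.74, adjusted p = 0.653 and 0.226). FN1 had 207.4, 207.2 and 314.6 FPKM in the second set's TGFbeta1 libraries, all below its controls, at 409.9, 403.1 and 379.6. The libraries labelled TGFbeta1 in the second set therefore did not show the target gene rise of the first. Sequencing depth and counting error are unknown, since the values are FPKM without read counts.

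Most splicing factor genes differed little between TGFbeta1 and control libraries. In the first set 3 of the 52 testable genes fell with TGFbeta1 and none rose (limma on log2(FPKM + 1), adjusted p under 0.05 over all genes), a share of 5.77% against 20.9% of all 10454 tested genes, of which 11.9% fell and 9.0% rose. The genes that fell were HNRNPU, HNRNPAB and SF3A3. At an unadjusted p under 0.05 there were 10 genes (19.2%, against 35.0% of all genes). In the second set none of 51 was called, where 0.321% of all 10579 tested genes were, and 5 had an unadjusted p under 0.05 (9.8%, against 11.2%). TGFbeta1 and control libraries did not overlap for 4 higher and 10 lower genes of the first set (26.9%, against 43.3% of all genes). The same held for 2 higher and 5 lower genes of the second (13.7%, against 19.3%).

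The differences were small in size. Of the 52 log2 differences of the first set, 48 were under 0.5 in size, and for 31 genes the 95% interval lay wholly within 0.5 of 0. The median was -0.105, against -0.055 over all genes, with 14 genes above 0 and 38 below. This split depended on the scaling: with every library scaled to an equal FPKM sum, 25 genes were above 0 and 27 below, and the median was -0.02. For the second set 50 of 51 differences were under 0.5, 27 were above 0 and 24 below, and the median was 0.005, against -0.00031 over all genes. All splicing factor genes together made up 1.19%, 1.21% and 1.25% of the summed FPKM in the first set's TGFbeta1 libraries, against 1.23%, 1.17% and 1.26% in its controls. They made up 0.968%, 0.951% and 0.93% in the second set's TGFbeta1 libraries, against 0.954%, 0.987% and 0.946% in its controls. The groups overlapped in both sets.

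**Figure D1:**
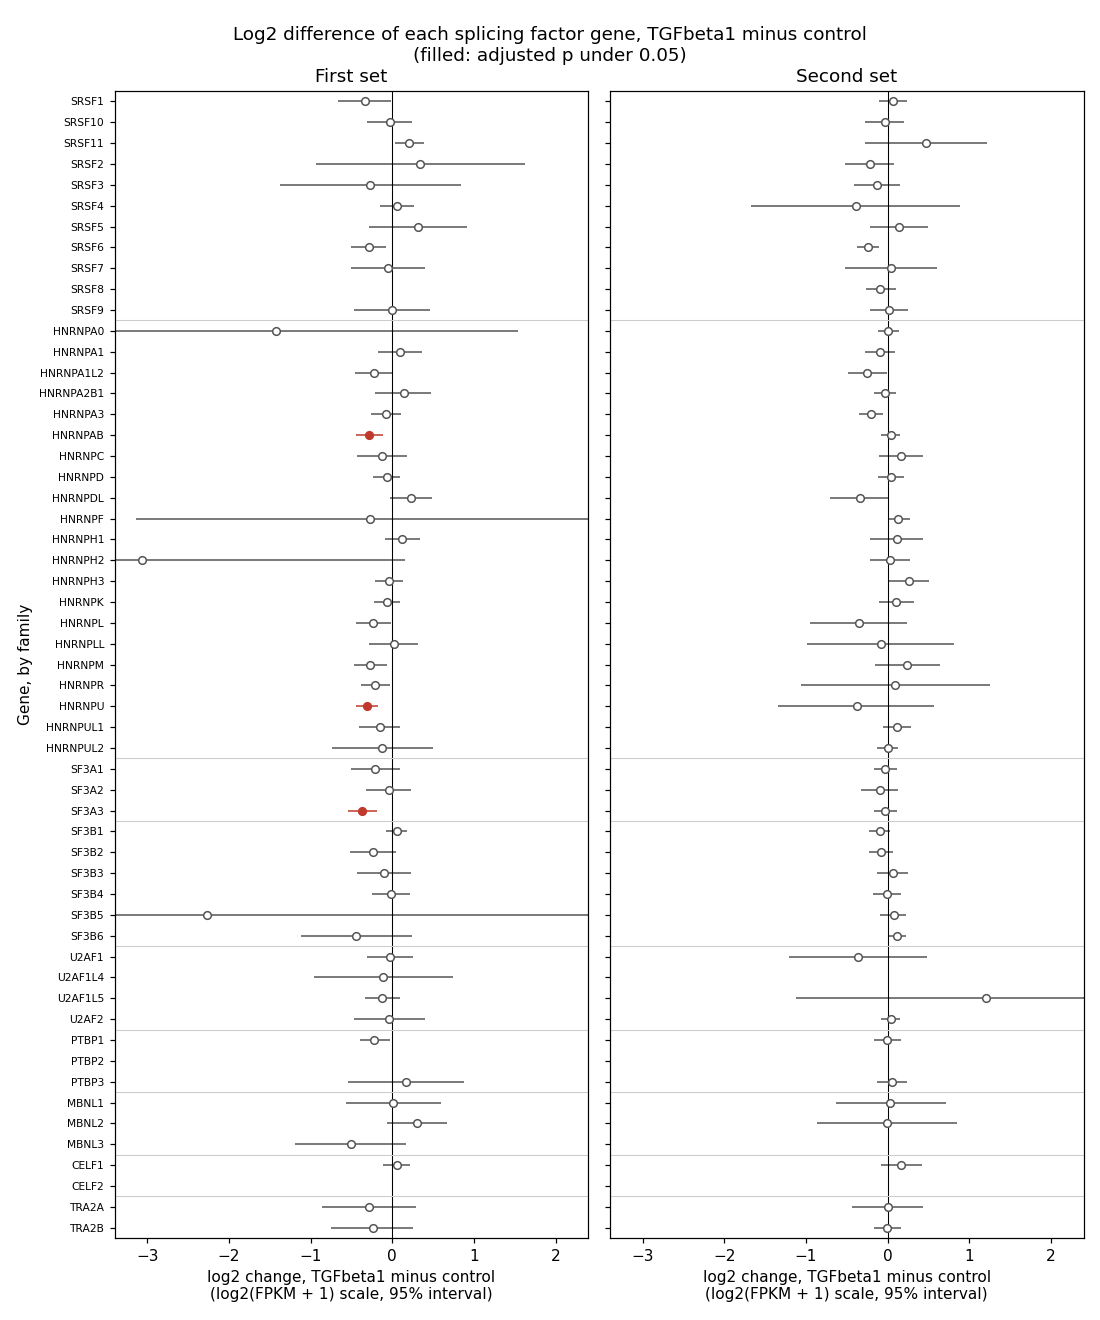
Log2 difference (TGFbeta1 minus control, log2(FPKM + 1) scale) of each splicing factor gene with its 95% interval, in the first set (left) and the second (right), grouped by family. Filled points mark the 3 genes with an adjusted p under 0.05; intervals that reach past the axis are cut off there, and genes below the expression minimum or not listed in a set have no point.

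HNRNPU, which encodes a chromatin-associated hnRNP also known as scaffold attachment factor A (hg19 chromosome 1, 245013599 to 245027862, minus strand), had 78.6, 82.8 and 81.9 FPKM in the TGFbeta1 libraries of the first set, against 102.2, 99.2 and 100.9 in its controls. All 3 TGFbeta1 libraries lay below all 3 controls. The fall was 0.31 on the log2 scale (log2 change -0.31, SE 0.053, adjusted p = 0.0128). The call was lost without TGFbeta1 1 (adjusted p = 0.0518) or without control 1 (adjusted p = 0.0506).

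SF3A3, a subunit of the SF3A complex, lies on hg19 chromosome 1 (38422647 to 38456593, minus strand) and is listed with a single transcript. It had 29.2, 30.5 and 32.8 FPKM in the first set's TGFbeta1 libraries, against 39.1, 39.6 and 41.4 in controls. The groups were apart, and the log2 change was -0.37 (SE 0.070, adjusted p = 0.0186). Leaving out TGFbeta1 1 or 2 or control 1 or 2 took the adjusted p to between 0.0521 and 0.0645.

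HNRNPAB, an hnRNP related to HNRNPD and HNRNPDL (hg19 chromosome 5, 177631508 to 177638164, plus strand), had 106.5, 104.0 and 111.9 FPKM in TGFbeta1 libraries of the first set, against 126.2, 125.3 and 140.1 in controls. Again no TGFbeta1 library reached a control. The log2 change was -0.28 (SE 0.069, adjusted p = 0.0416), and the call was the least firm of the 3: without any 1 of the 6 libraries its adjusted p lay between 0.053 and 0.126, and under the 3 other scalings between 0.066 and 0.0925.

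**Figure D2:**
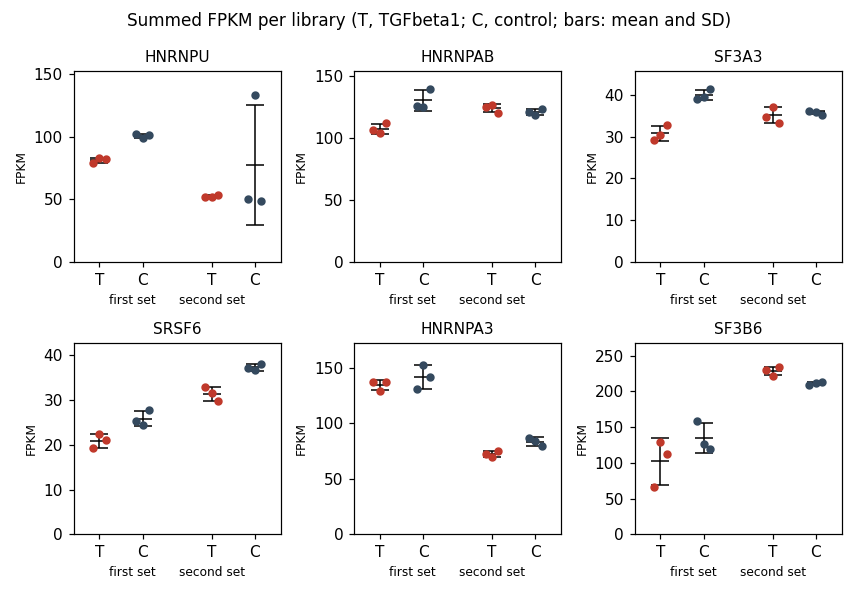
Summed FPKM in each library (points) with mean and SD (bars) for the 3 genes called in the first set and the 3 of smallest p in the second; T is TGFbeta1 and C is control. HNRNPU, HNRNPAB and SF3A3 show separate groups in the first set, and control 5 of the second set stands at 132.9 FPKM of HNRNPU.

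None of these 3 falls recurred as a call in the second set. SF3A3 had 34.8, 37.2 and 33.4 FPKM in TGFbeta1 libraries there, against 36.2, 35.9 and 35.3 in controls, so the control values lay inside the TGFbeta1 range. HNRNPAB had 125.4, 126.9 and 120.4 FPKM, against 121.5, 118.5 and 123.3, and the groups overlapped. HNRNPU had 52.1, 52.0 and 53.8 FPKM, against 50.4, 132.9 and 48.6. The high value of control 5 came mainly from 1 transcript, ENST00000483966.3_2, at 98.6 FPKM there and 12 and 22.9 in controls 4 and 6. Without that library the log2 difference of HNRNPU in the second set was 0.09 (adjusted p = 0.684), against -0.38 with it.

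The interaction of set and agent tested whether the difference itself changed between the sets. It was called for 2 of 52 splicing factor genes (3.85%, against 13.6% of all 10548 genes tested). The second set's log2 difference minus the first set's was 0.31 for HNRNPAB (SE 0.087, adjusted p = 0.0394) and 0.34 for SF3A3 (SE 0.096, adjusted p = 0.0405). Both calls were lost under each of the 3 other scalings, where the adjusted p ran from 0.0679 to 0.216. For HNRNPU the interaction was -0.07 (adjusted p = 0.94) with all libraries and 0.40 (adjusted p = 0.0135) without control 5, the library with the high value given above. HNRNPU has 3 listed transcripts in the first table but 8 in the second, without a shared identifier of the same version. Its interaction therefore compares sums over different transcripts. The target gene response named above also differed between the sets, and its part in these differences was not tested.

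Among the SR proteins no gene was called in either set. Of the 10 tested in the first set, 4 were above 0 and 6 below (median -0.02), and under the equal-sum scaling 7 were above and 3 below. SRSF6, a regulator of alternative exons, had 19.2, 22.4 and 21.0 FPKM in TGFbeta1 libraries of the first set, against 25.4, 24.4 and 27.7 in controls. Its values were 33.0, 31.5 and 29.9 FPKM in TGFbeta1 libraries of the second set, against 37.2, 36.7 and 38.1 in controls. TGFbeta1 libraries lay below all controls in both sets, and neither difference passed the test (log2 -0.29, SE 0.088, adjusted p = 0.0688, and log2 -0.24, SE 0.057, adjusted p = 0.235). SRSF6 had the smallest p of all splicing factor genes in the second set.

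SRSF1, the founding SR protein, had 51.2, 47.5 and 51.7 FPKM in the first set's TGFbeta1 libraries, against 52.9, 74.9 and 65.3 in controls (log2 -0.34, adjusted p = 0.136). The groups were apart by little, with control 1 close to the TGFbeta1 range. Without control 1 the difference passed the test (log2 -0.47, adjusted p = 0.0412). Leaving out the control nearest to the TGFbeta1 libraries widens the gap by itself, so this is no separate support. SRSF1 in the second set had 53.5, 51.6 and 46.1 FPKM, against 47.4, 47.3 and 48.9, and the groups overlapped.

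SRSF11, an SR-related protein, had 24.6, 25.8 and 27.6 FPKM in the first set's TGFbeta1 libraries, against 21.5, 22.5 and 23.0 in controls (log2 0.21, adjusted p = 0.0977). All TGFbeta1 libraries were above all controls, and the difference passed the test under the equal-sum scaling (log2 0.29, adjusted p = 0.0402). Within the second set TGFbeta1 5 stood apart with 31.8 FPKM, against 15.8 and 13.4 in TGFbeta1 4 and 6 and 13.0, 14.0 and 13.2 in controls. That library's excess lay in transcript ENST00000370951.5_1, with 24.8 FPKM there and between 2.82 and 5.25 in the other libraries of the set.

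The other SR genes overlapped between the groups in both sets. SRSF2 and SRSF3, which are known to regulate their own transcripts, were uneven within the groups of the first set: SRSF2 had 25.3, 76.7 and 62.7 FPKM in TGFbeta1 libraries, against 47.2, 22.9 and 54.4 in controls. SRSF3 had 46.6, 19.7 and 20.2 FPKM, against 51.5, 21.8 and 29.7. In each of these genes replicates of 1 group differed more from each other than the group means did. TRA2A and TRA2B, activators of exons with purine-rich enhancers, had log2 differences of -0.28 and -0.24 in the first set (adjusted p = 0.441 and 0.451). Both were within 0.01 of 0 in the second set, at 0.0045 and -0.0013.

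The 21 hnRNP genes held the most abundant members. HNRNPA2B1 averaged 367.1 ± 12.1 FPKM in TGFbeta1 libraries of the first set and 337.6 ± 60.4 in controls (SD, n = 3 each), and HNRNPA1, a repressor of exon inclusion that counters SR proteins, averaged 361.4 ± 50.3 and 335.6 ± 18.0. Both overlapped between groups. Of the hnRNP genes 5 were above 0 and 16 below in the first set (median -0.13), with 2 called lower, against 13 above and 8 below in the second (median 0.02). The first set's median hnRNP difference stayed below 0 under the 3 other scalings, at -0.04 to -0.07. The second set's split depended on the scaling, with 10 above 0 and 11 below when every library had an equal sum.

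HNRNPM, HNRNPR and HNRNPL were lower in each TGFbeta1 library of the first set than in any control, without passing the test. HNRNPM, a splicing regulator studied in epithelial-mesenchymal transition, had 103.4, 99.9 and 112.5 FPKM, against 128.5, 117.2 and 136.3 (log2 -0.27, adjusted p = 0.0717). HNRNPR had 50.0, 48.7 and 45.9 FPKM, against 59.0, 55.7 and 52.9 (log2 -0.21, adjusted p = 0.0934). HNRNPL, which binds CA-rich RNA, had 91.4, 102.5 and 98.3 FPKM, against 113.2, 106.2 and 125.3 (log2 -0.23, adjusted p = 0.113). All 3 overlapped between groups in the second set.

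HNRNPDL lay in opposite directions in the sets, with no overlap in either. In the first it had 65.3, 82.6 and 70.1 FPKM in TGFbeta1 libraries, against 57.8, 64.6 and 62.5 in controls (log2 0.23, adjusted p = 0.184). In the second it had 49.1, 44.0 and 46.0 FPKM, against 49.8, 55.7 and 73.5 (log2 -0.34, adjusted p = 0.475). Control 6 held 20.5 FPKM of transcript ENST00000602300.5_1, against 0.012 to 0.262 in the other 5 libraries, and without control 6 the log2 difference was -0.18 (adjusted p = 0.589). The difference between the sets was -0.57 (interaction adjusted p = 0.084). It passed the test under the equal-sum scaling and without control 4. Control 4 was the control nearest to the TGFbeta1 libraries, so leaving it out widens the gap by itself.

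HNRNPA3, a nuclear hnRNP close to HNRNPA2B1, had the second smallest p of the second set. It had 71.9, 69.7 and 75.3 FPKM in TGFbeta1 libraries, against 86.8, 84.2 and 79.3 in controls (log2 -0.20, SE 0.058, adjusted p = 0.298), with no overlap. The first set's values were 136.8, 129.3 and 136.9 FPKM in TGFbeta1 libraries, against 131.0, 152.9 and 141.5 in controls, and overlapped. HNRNPA1L2, a near copy of HNRNPA1 whose reads may be shared with it, was lower without overlap in both sets, at 16.6, 17.0 and 16.1 FPKM against 18.4, 18.2 and 22.1, and at 9.14, 10.1 and 8.77 against 10.3, 12.6 and 10.9. Neither passed the test (adjusted p = 0.159 and 0.432).

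Of the other SF3A and SF3B genes, which build the U2 particle around the branch point, none was called in either set. SF3A1 and SF3A2 had log2 differences of -0.21 and -0.045 in the first set, while those of the second were -0.028 and -0.093. SF3B1, the largest SF3B subunit, which contacts the branch site region, was among the steadiest. It had 56.1, 54.2 and 54.7 FPKM in the first set's TGFbeta1 libraries, against 53.6, 52.6 and 52.7, and 57.3, 57.2 and 54.7 against 58.8, 59.3 and 63.2 in the second. The groups were apart in opposite directions by small amounts (log2 0.053 and -0.097, adjusted p = 0.528 and 0.562).

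SF3B6, a subunit of the SF3B complex, had the third smallest p of the second set. It had 230.1, 222.3 and 233.6 FPKM in TGFbeta1 libraries, against 209.6, 211.5 and 213.4 (log2 0.11, SE 0.042, adjusted p = 0.417), with no overlap. The first set had the other order with overlapping groups, at 65.7, 129.5 and 112.0 FPKM against 158.7, 126.7 and 119.3 (log2 -0.44, adjusted p = 0.31). SF3B2, SF3B3 and SF3B4 overlapped between groups in both sets, with log2 differences of -0.24, -0.10 and -0.014 in the first.

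U2AF2, the large U2AF subunit, which binds the polypyrimidine tract, had 89.6, 93.8 and 97.6 FPKM in the first set's TGFbeta1 libraries, against 86.3, 81.4 and 126.3 in controls. In the second it had 63.4, 66.3 and 66.4, against 63.1, 63.5 and 64.6, and the groups overlapped in both. U2AF1, the small subunit that reads the AG at the intron's end, and U2AF1L5 are listed on the same stretch of hg19 chromosome 21, from 44513066, so the division of reads between them is uncertain. TGFbeta1 4 of the second set had 36.0 FPKM of U2AF1L5 and 14.7 of U2AF1, while its other 5 libraries had 1.59 to 8.10 FPKM of U2AF1L5 and 24.2 to 37.9 of U2AF1. Neither gene was called in either set, and summing them left the calls of splicing factor genes at 3 and 0.

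PTBP1, a repressor that binds pyrimidine-rich RNA, had 116.4, 101.5 and 118.3 FPKM in TGFbeta1 libraries of the first set, against 132.1, 127.5 and 130.4 in controls. All TGFbeta1 values were below the controls, and the difference did not pass the test (log2 -0.22, adjusted p = 0.105). PTBP1 in the second set had 58.9, 63.3 and 57.6 FPKM, against 56.7, 59.9 and 64.3 (log2 -0.0063). PTBP2, the neural member, was at or below 0.882 FPKM in every library of the first set and was not tested. PTBP3 overlapped between groups in both.

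MBNL1, a regulator of developmental exons, averaged 26.3 ± 5.10 FPKM in the first set's TGFbeta1 libraries and 26.3 ± 6.53 in controls (SD, n = 3 each), and its groups overlapped in the second set too. MBNL2 had 10.9, 10.1 and 11.9 FPKM in the first set's TGFbeta1 libraries, against 10, 9.52 and 6.92 in controls (log2 0.30, adjusted p = 0.219). The groups were apart there and overlapped in the second set. CELF1, which acts against MBNL proteins on many targets, had log2 differences of 0.057 and 0.17 (adjusted p = 0.583 and 0.585). CELF2 was below the expression minimum, at 0.0415, 0.0565 and 0.0592 FPKM in TGFbeta1 libraries of the first set, against 0.309, 0.523 and 0.296. When no minimum was set, it was called lower there.

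Single transcripts were tested as well. Among 173 transcripts of splicing factors in the first set, 1 was called (0.578%, against 5.54% of all 18113), and in the second none of 168 (0.221% of all 20392). At an unadjusted p under 0.05 there were 17 and 14 (9.83% and 8.33%, against 20.5% and 6.84% of all). The call was HNRNPL transcript ENST00000600233.5_2, a minor form with 2.27, 2.68 and 1.95 FPKM in TGFbeta1 libraries, against 4.18, 5.05 and 4.52 in controls. Its fall was 0.76 on the log2 scale (log2 change -0.76, SE 0.15, adjusted p = 0.0463), and the adjusted p was between 0.0876 and 0.134 without any 1 library. The second set's version of that transcript had 7.54, 0.833 and 2.53 FPKM, against 0.950, 0.686 and 1.21.

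The share that each transcript took of its gene was tested for genes of at least 5 FPKM. No share of a splicing factor transcript was called, among 115 tested in the first set and among 104 in the other, where 0.0721% and 0.1% of all shares tested were. Unadjusted p-values under 0.05 were found for 3 and 4 shares (2.61% and 3.85%, against 6.98% and 4.59% of all). Shares were often uneven within a group. HNRNPL transcript ENST00000221419.9_1 took 88.1%, 45.1% and 86.4% of its gene in TGFbeta1 libraries of the first set, against 50.9%, 64.2% and 61.0% in controls. It took 62.9% of the gene in TGFbeta1 4 of the second set and between 6.71% and 8.41% in the other 5 libraries.

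Cassette exons of the splicing factors' own transcripts give a closer view, because many of these genes make several protein forms by skipping an exon. The inclusion level used here is the summed FPKM of the transcripts that hold an exon, as a percentage of those that hold it plus those that join its neighbours directly. It rests on the authors' transcript assignment and not on junction reads. In each set 24 exon events of splicing factor genes could be tested, and none was called (0.196% and 0.166% of all exons tested). There were 1 and 3 unadjusted p-values under 0.05 (4.17% and 12.5%, against 7.07% and 4.85%). The groups did not overlap for 5 of the 24 events of the first set and 4 of the second's (20.8% and 16.7%, against 12.9% and 11.6% of all exons).

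The 6 exons shown next were picked from 15 as examples, in abundant hnRNPs, PTBP1 and MBNL1, of skipping known to give separate protein forms. Others of the 15 may also meet this description. The 15 were kept for lengths of whole codons, at least 20 FPKM on average in both sets and 5% to 95% mean inclusion in either set. Capitals mark the exon and lower case the 12 bases of mature transcript on either side, 5' to 3', from GENCODE release 29.
HNRNPA2B1 36-base exon: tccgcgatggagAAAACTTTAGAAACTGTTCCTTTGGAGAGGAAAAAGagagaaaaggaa
HNRNPAB 141-base exon: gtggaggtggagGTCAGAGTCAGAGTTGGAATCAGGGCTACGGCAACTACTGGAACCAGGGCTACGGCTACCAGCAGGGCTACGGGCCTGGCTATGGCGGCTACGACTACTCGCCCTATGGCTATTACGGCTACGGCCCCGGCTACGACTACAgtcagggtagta
HNRNPD 147-base exon: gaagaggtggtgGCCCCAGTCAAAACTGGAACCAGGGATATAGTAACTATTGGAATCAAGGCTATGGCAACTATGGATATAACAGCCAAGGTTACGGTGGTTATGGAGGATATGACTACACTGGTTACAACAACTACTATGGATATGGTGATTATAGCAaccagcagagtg
HNRNPD 57-base exon: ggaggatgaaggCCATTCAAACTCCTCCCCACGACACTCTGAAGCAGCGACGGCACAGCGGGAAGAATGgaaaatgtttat
PTBP1 78-base exon: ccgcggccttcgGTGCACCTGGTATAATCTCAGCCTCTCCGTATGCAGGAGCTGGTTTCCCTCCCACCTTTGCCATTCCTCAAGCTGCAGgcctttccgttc
MBNL1 54-base exon: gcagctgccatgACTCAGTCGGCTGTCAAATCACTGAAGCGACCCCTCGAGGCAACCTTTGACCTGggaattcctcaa
On GRCh38 they lie at chr7:26197831-26197866, chr5:178210132-178210272, chr4:82356537-82356683, chr4:82371528-82371584, chr19:805492-805569 and chr3:152446704-152446757, in the order above. Lengths that are multiples of 3 were required of the 15 exons, so skipping any of the 6 leaves the reading frame by selection. The PTBP1 exon is 62.8% pyrimidine, the highest share among the 15 exons compared.

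The exons of HNRNPAB and HNRNPD that encode part of the glycine- and tyrosine-rich tail had higher inclusion levels in every TGFbeta1 library of the first set than in any control, without passing the test. The HNRNPAB exon was included at 76.1%, 77.4% and 75.8% in TGFbeta1 libraries, against 71.2%, 74.7% and 69.9% in controls. The 147-base HNRNPD exon was included at 41.0%, 39.2% and 40.1%, against 38.0%, 38.7% and 37.6%. The group means were apart by 4.5 and 2.0 percentage points (log2 ratios 0.33 and 0.12, adjusted p = 0.856 and 0.954). The 72-base HNRNPK exon was apart in the other direction, at 88.1%, 89.0% and 88.3% in TGFbeta1 libraries, against 89.8%, 90.4% and 95.6% in controls (adjusted p = 0.825). A 222-base HNRNPUL1 exon was likewise lower, at 92.8%, 88.1% and 93.1%, against 95.9%, 94.7% and 97.4% (adjusted p = 0.769). Both overlapped in the second set.

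For the second set the HNRNPAB exon was included at 90.0%, 90.8% and 89.2%, against 89.4%, 88.9% and 89.6%, and the HNRNPD exon at 66.9%, 72.6% and 68.7%, against 64.6%, 67.8% and 67.0%. The groups overlapped for both. The 57-base HNRNPD exon, near the start of the protein, was included at 73.9%, 73.2% and 75.1% in the first set's TGFbeta1 libraries, against 74.5%, 72.5% and 76.9%, and overlapped in the second set as well.

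The 36-base exon that makes the longer of the HNRNPA2B1 proteins was included at 5.0%, 2.9% and 5.5% in the first set's TGFbeta1 libraries, against 3.9%, 5.2% and 8.7% in controls, so the shorter form prevailed in every library. The 78-base PTBP1 exon stood at 92.5% on average in the second set's TGFbeta1 libraries and 92.6% in its controls, and at 81.5% and 82.7% in the first.

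Some exons varied widely between replicates. The 54-base exon of MBNL1, which is known to favour nuclear localisation of the protein, was included at 61.9%, 45.4% and 26.9% in the first set's TGFbeta1 libraries, against 48.3%, 19.7% and 22.6%. Inclusion in the second set was 25.4%, 25.7% and 27.6% in TGFbeta1 libraries, against 3.0%, 25% and 1.8% in controls. The groups did not overlap in the second set, although control 5 was next to the TGFbeta1 values, and the difference did not pass the test (log2 ratio 2.23, adjusted p = 0.901). Transcript ENST00000498502.5_1 of MBNL1 showed the same order of groups, with 9.62, 10.1 and 6.43 FPKM in TGFbeta1 libraries of the second set, against 0.803, 2.68 and 0.362 (log2 2.20, adjusted p = 0.293). The first set had 0.652, 0.183 and 1.29 FPKM, against 0.425, 2.41 and 0.622.

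The smallest p among the exons was that of an event in MBNL1 that joins its 36-base exon to a far downstream partner, covered by only 6.2 FPKM on average. It was included at 3.7%, 3.2% and 7.3% in the second set's TGFbeta1 libraries, against 24.4%, 66.2% and 64.1% (log2 ratio -3.50, adjusted p = 0.181 by limma). The same event overlapped in the first set, at 49.3%, 75.3% and 46.5% against 67.5%, 23.2% and 62.9%. Counted to its nearer downstream exon, the 36-base exon averaged 12.1% inclusion in the second set's TGFbeta1 libraries and 15.8% in controls. This counting was covered by 27.7 FPKM on average, and its groups overlapped (log2 ratio -0.31, adjusted p = 0.974 by limma). A 95-base exon of MBNL1, counted from the more distant of 2 upstream exons, was lower without overlap in the second set. It was included at 74.4%, 74.2% and 67.9% in TGFbeta1 libraries, against 97.4%, 79.4% and 99.0%, at 29.2 FPKM on average. It did not pass the test (log2 ratio -2.55, adjusted p = 0.901 by limma). The first set had the other order with overlap, at 92.9%, 94.2% and 82.4% against 85.9%, 51.0% and 88.7%. A 95-base exon of MBNL2, counted from the more distant of 2 upstream exons, was apart in both sets and in 1 direction, at 6.8 and 8.4 FPKM on average. It was included at 53.6%, 64.6% and 57.4% in the first set's TGFbeta1 libraries, against 46.5%, 35.2% and 39.8%. In the second it was included at 21.7%, 74.1% and 27.6%, against 8.1%, 0% and 12.2%. It did not pass the test in either (adjusted p = 0.627 and 0.901), and it was singled out after its values were seen. Counted from the nearer upstream exon, at 3.1 FPKM, the same exon was included at 80.5%, 0% and 100% in TGFbeta1 libraries of the first set, against 100%, 90% and 54.8% in controls, and at 100% in every library of the second.

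**Figure D3:**
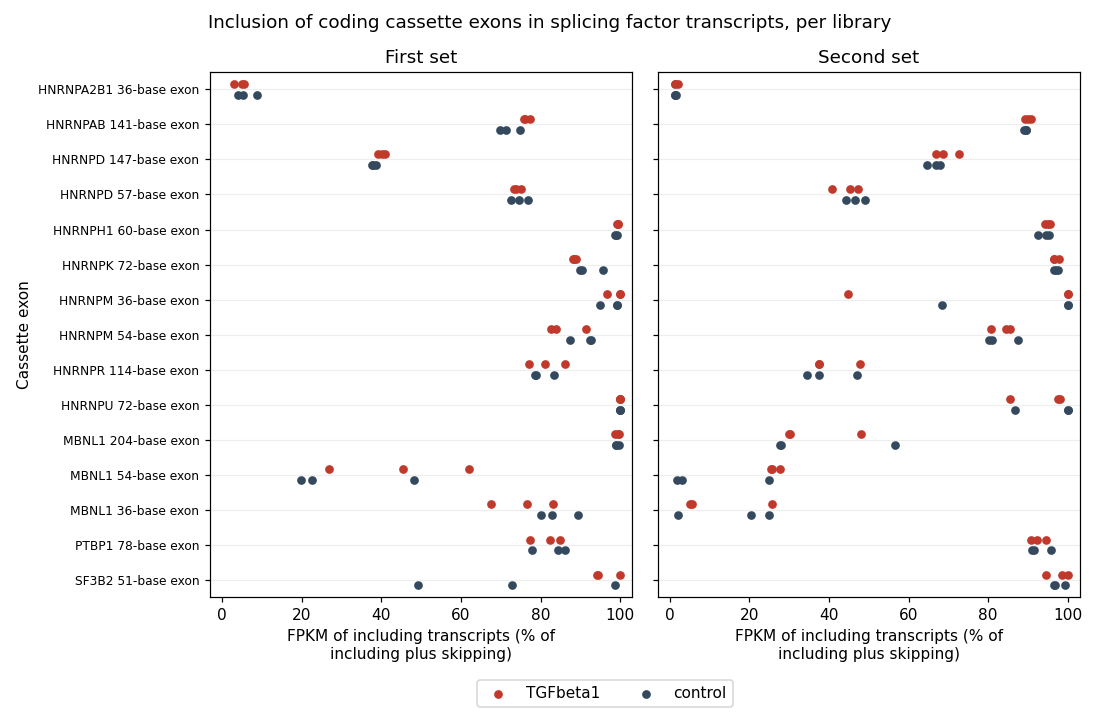
Inclusion level (%) of 15 coding cassette exons of 11 splicing factor genes in each library of the first set (left) and the second (right). Red points are TGFbeta1 libraries and dark points controls. The 15 were kept by the limits on length, FPKM and inclusion given above. Among these exons replicates spread most for the 36-base exon of HNRNPM in the second set (SD 31.95 in TGFbeta1 libraries) and the 51-base exon of SF3B2 in the first (SD 24.76 in controls), and widely for the 54-base exon of MBNL1 in the first (SD 17.52 in TGFbeta1 libraries and 15.75 in controls).

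Several genes had single libraries far from the rest. HNRNPA0 was listed at 0 in all 3 TGFbeta1 libraries and in controls 1 and 2 of the first set and at 18.2 FPKM in control 3, while all libraries of the second set lay between 18.1 and 19.0. SF3B5 was likewise listed at 0 in the same 5 libraries and at 110.5 FPKM in control 3, against 90.4 to 106.3 in the second set. Each has 1 exon in GENCODE release 29, as have HNRNPA1L2, at 16.1 to 22.1 FPKM in the first set, and SRSF8, not listed there. Whether this bears on the values of 0 was not tested.

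HNRNPH2 was listed at 2e-06, 23.9 and 0 FPKM in the first set's TGFbeta1 libraries, against 22.9, 22.7 and 25.1 in controls, and did not pass the test (log2 -3.07, adjusted p = 0.158). TGFbeta1 2 was the only TGFbeta1 library at the level of the controls. The fit without it passed (log2 -4.62, adjusted p = 0.000398), but this follows from which library was left out and is no separate test. Its second set values were 31.7, 29.9 and 24.5 FPKM, against 28.3, 28.1 and 27.7. HNRNPF had 15.6, 121.5 and 114.3 FPKM in the first set, against 143.8, 17.4 and 152.3, with 1 low library in each group, and 232.3, 228.7 and 210.2 against 207.4, 205.8 and 197.5 in the second. HNRNPR in the second set had high and low libraries in both groups, at 101.8, 49.1 and 98.7 FPKM against 104.2, 39.0 and 99.3.

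**Figure D4:**
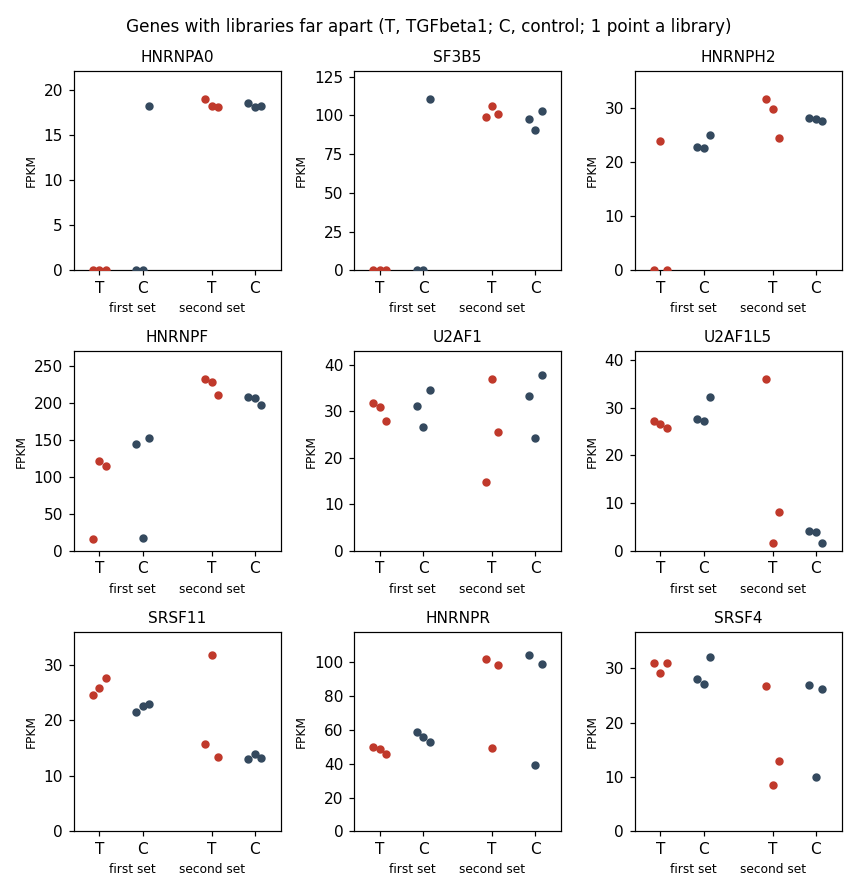
FPKM in each library for 9 splicing factor genes with widely spaced replicates, with TGFbeta1 (T) beside control (C) in each set. HNRNPA0 and SF3B5 are listed at 0 in 5 of 6 libraries of the first set and stand at even levels in the second.

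The splicing machinery beyond these families was followed in 92 other genes in 6 lists: U1 particle, Sm core, other U2 proteins, tri-snRNP, other splicing regulators, and SR protein kinases and import factors. Of 90 tested in the first set 10 were called, 1 higher and 9 lower, beside the 20.9% of all genes given above, at a median log2 difference of -0.137. None of 90 was called in the second set, where 0.321% of all genes were, and 10 had an unadjusted p under 0.05, a share near the 11.2% of all genes. The calls of the first set were spread as 6 lower among the 34 other regulators, 1 lower each among 11 other U2 and 15 tri-snRNP genes, 1 higher and 1 lower among 14 kinase and import genes, and none among 9 U1 and 7 Sm genes. The median differences of the lists lay between -0.197 and 0.012.

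ESRP2, an epithelial splicing regulator, fell. It had 5.76, 6.61 and 6.73 FPKM in the first set's TGFbeta1 libraries, against 13.0, 13.0 and 15.8 in controls (log2 change -1.02, SE 0.11, adjusted p = 0.00278). Its partner ESRP1, named after its values were seen, had 39.0, 43.5 and 39.1 FPKM, against 61.1, 62.4 and 52.9 (log2 change -0.52, adjusted p = 0.0138). Both lay the other way in the second set without passing the test: ESRP2 had 12.1, 12.1 and 9.06 FPKM, against 5.80, 8.81 and 7.64, and ESRP1 had 40.0, 42.8 and 38.4, against 34.8, 36.5 and 34.0. TGFbeta1 libraries were above all controls there.

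RBM47, an RNA-binding protein of epithelia, averaged 0.772 ± 0.115 FPKM in the first set's TGFbeta1 libraries and 1.86 ± 0.262 in controls (SD, n = 3 each; log2 change -0.69, adjusted p = 0.0108). KHSRP, which binds AU-rich and intronic elements, fell by 0.43 on the log2 scale (adjusted p = 0.0114). PRMT5, the methyltransferase of Sm proteins, and PPIH, a cyclophilin of the tri-snRNP, had log2 changes of -0.45 and -0.34. The gene that rose was PRPF4B, a kinase of the tri-snRNP, at 8.36 ± 0.717 FPKM in TGFbeta1 libraries and 4.75 ± 0.768 in controls (SD, n = 3 each; log2 change 0.71, adjusted p = 0.0144), also named after its values were seen.

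**Figure D5:**
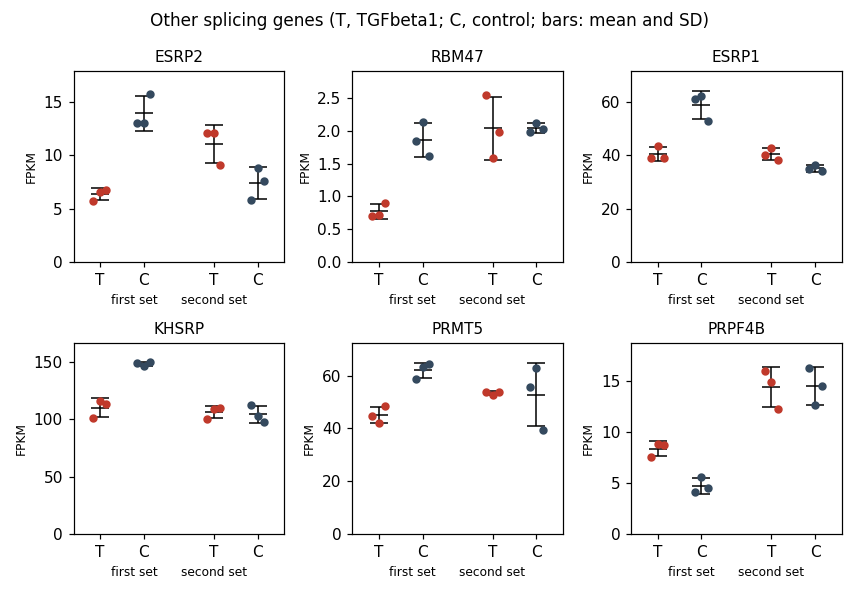
FPKM in each library (points) with mean and SD (bars) for 6 splicing genes outside the families, with TGFbeta1 (T) beside control (C) in each set. In the first set 5 were lower and PRPF4B was higher in TGFbeta1 libraries; none passed the test in the second set.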

How the data were processed

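The authors deposited FPKM per protein-coding transcript in 2 tables, one for each set, made with HISAT2 2.0.4, StringTie 1.2.3, FastQC and cutadapt on the hg19 build, per the submitters' processing notes. Not given in the sources used here were the annotation release and settings. Only the second table's headers name FPKM, so the first table's unit is inferred from its values. The authors' second deposited table also holds a log2 fold change, a linear fold change (ratio), p-values and q-values per transcript, cited here as the authors' deposited table. The deposited tables held 0 columns of libraries that went unused. No counts were used, so the precision is limited by the 3 libraries in each group and set.

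Transcripts were summed per gene symbol, after 163 symbols of the first table were renamed to the second's. Features with a mean of at least 1 FPKM were tested within each set on log2(FPKM + 1) with limma 3.58.1 in R 4.3.3 (mean-variance trend, Benjamini-Hochberg over all features, two-sided, called at an adjusted p under 0.05). Fold changes on this scale understate those of low genes. Transcript shares were tested as log2((transcript + 0.5)/(rest of the gene + 0.5)), for shares of 5% to 95%. Exon inclusion was tested likewise; 291 of 292 and 220 of 220 transcripts of splicing factors matched GENCODE release 29 by identifier, and exons and sequences come from there; 1 exon is not reported here. The procedure was tested on simulated data with shifts larger than most differences reported here. That test does not show whether smaller differences would be found. Tables and plots were made with Python 3.11.15, numpy 2.4.6, pandas 2.3.3 and matplotlib 3.10.9.

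The genes, lists and tests were chosen with earlier results of these data known. Named genes were all called members, or the 3 of smallest p where none was called, called transcripts, and the 5 called other splicing genes of smallest p; the rest are given by value. Alternatives were a pseudocount or offset of 0.1, no minimum or one of 5 (genes) or 20 FPKM (shares), 3 other scalings, no trend, transcripts in both tables only, an untransformed share, a replicate block and leaving out each library. The exon test, leaving out features listed at 0, and the sum of U2AF1 and U2AF1L5 were added after seeing the data. Where a library was left out, the spread of the remaining pair was pooled with that of the other group.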

Additional observations from a re-analysis of the deposited data

Results flagged for a closer look

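The difference between TGFbeta1 and control libraries was itself different in the 2 sets for 2 of 52 splicing factor genes, by the interaction term of limma. That is 3.85%, against 13.6% of all 10548 genes tested, and both calls were lost under the 3 other scalings. For HNRNPAB, an hnRNP, the second set's log2 difference exceeded the first set's by 0.31 (95% interval 0.12 to 0.51, adjusted p = 0.0394), with log2 differences of 0.037 in the second set and -0.28 in the first. All 3 TGFbeta1 libraries lay below all 3 controls in the first set, and the groups overlapped in the second. For SF3A3, a subunit of the U2 particle, the difference between the sets was 0.34 (95% interval 0.13 to 0.55, adjusted p = 0.0405), with log2 differences of -0.026 in the second set and -0.37 in the first. Over 23 alternatives each, the adjusted p ran from 0.0367 to 0.18 for HNRNPAB and from 0.0301 to 0.216 for SF3A3. No group of 3 libraries was tested for outliers.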

How the results depend on the processing

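The 3 calls among splicing factor genes of the first set numbered 2 to 4 under the other scalings, minima, pseudocount and variance model, and 0 to 2 without any 1 library. HNRNPU kept its call in 13 of 16 alternatives, SF3A3 in 12 of 17 and HNRNPAB in 6 of 17, and no result followed in this way turned round. The uncalled HNRNPU difference of the second set and its interaction were not followed there, and both changed sign without control 5. The interaction calls fell to 0 with median of ratios, 1 (HNRNPDL) with an equal sum per library, 0 with quantile normalisation and 0 without trend, and to between 0 and 3 without any 1 library. The transcript call of the first set became 2 with a pseudocount of 0.1, 0 with no minimum, 0 with an equal sum, 0 with median of ratios and 2 without trend, and 0 to 3 without any 1 library; in the second set it was 0 or 1 without any 1 library. The other splicing genes of the first set kept between 5 and 13 calls without any 1 library. Share and exon calls were 0 under every alternative run. Over all genes of the first set, 43.0% of the calls were higher as reported, 57.7% with an equal sum, 51.6% with quantile normalisation and 50.9% with median of ratios.

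With the replicate number as a block, the calls of the first set became 0 for splicing factor genes and 0 for their transcripts, 5 for other splicing genes, and 0 for the interaction; all genes of the first set gave 1211 calls instead of 2186, and the second 0 instead of 34. The deviations of same-numbered libraries correlated at only 0.0171, 0.0175 and 0.00746 in the first set and 0.0457, 0.0166 and 0.0375 in the second. Each TGFbeta1 library correlated best with the control of its own number, except TGFbeta1 3 (0.00746 with control 3, 0.00883 with control 1). Correlations this small do not decide whether the libraries were paired.

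With 3 libraries a group and unknown depth, a difference that missed the threshold is not shown to be absent. The causes of the lost calls were not tested.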

Other observations

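In the authors' deposited table for the second set, 28 of 29204 transcripts had a q-value under 0.05, and none belonged to a splicing factor gene. The share of all transcripts with a p-value under 0.05 was not computed. With so few q-values under 0.05 over all transcripts, their absence does not set apart the 220 splicing factor transcripts. The smallest p in the authors' deposited table among them was that of SRSF6 transcript ENST00000244020.4_1 (log2 fold change -0.24, q = 0.396). In the authors' deposited table MBNL1 transcript ENST00000498502.5_1 had the largest size of change of the splicing factor transcripts with a p-value under 0.05 (log2 fold change 2.20, q = 0.481).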
